A study of Mus musculus with 16 samples.

Results

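The E2f4 peaks of regenerating mouse liver were compared between Arid1a WT and Arid1a KO. The members were all peaks on chromosomes 1 to 19 in the 4 E2f4 peak lists, 2 per genotype, with the mitochondrial chromosome left out. They numbered 3724 of the 261666 peaks in the 8 lists used from the series, which also hold 1 H3K4me2 and 1 H3K27ac list per genotype. Peaks that overlapped by at least 1 bp were merged into 2105 regions.

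All groups were liver of mice on a C57/B6 and 129 mix background at postnatal day 90, taken 40 h after partial hepatectomy, an operation that removes most of the liver. WT mice were Arid1a Fl/Fl and carried no Cre, and KO mice were Arid1a Fl/Fl with Alb-cre, so that both genotypes carried the floxed alleles. Alb-cre, driven by the albumin promoter, deletes them in hepatocytes. Which other liver cells keep them was not tested here. Tissue had been frozen, was fixed in 1% formaldehyde for 20 min and was used for chromatin immunoprecipitation and sequencing (ChIP-seq) after a step that isolated hepatocytes, per the labels' protocols. Whether the replicates are separate animals is not given in the labels, so p-values measure only the spread between these libraries, which may be technical.

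E2f4 is the E2F family member that sits at cell cycle promoters in resting and early cycling cells, where it joins a DP partner, the pocket proteins p107 or p130 and the MuvB core in the DREAM complex. E2F proteins read GC-rich E2F sites, which are typical of genes for DNA replication, and the MuvB subunit Lin54 reads the CHR element, which is typical of genes for mitosis. Adult hepatocytes are mostly quiescent and re-enter the cycle after hepatectomy, and Arid1a is a subunit of the SWI/SNF complex, which moves nucleosomes.

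Promoter sequences show where the called peaks lay in relation to those elements. Each window runs from 250 bases before to 50 bases after the RefSeq start (build GRCm38.p6, the coordinates of mm10), so that base 251 is the start, and is printed 5′ to 3′ on the strand of the gene. Capitals mark E2F letters (TTTCCCGC, TTTGGCGC, TTTCGCGC, GGCGGGAA or their reverse complements) and CHR letters (TTTGAA on either strand, or the palindrome TTCGAA). GGCGGGAA overlaps GCGGGAAA, the reverse complement of TTTCCCGC, so a site can hold both. A match describes letters in the window and is not a measured binding site. E2f3 (chr13:29986014-29986313, minus strand), Iqgap3 (chr3:88081801-88082100, plus strand) and H3c8 (chr13:23535168-23535467, plus strand) are shown because they were among the strongest peaks in all 4 libraries.
E2f3: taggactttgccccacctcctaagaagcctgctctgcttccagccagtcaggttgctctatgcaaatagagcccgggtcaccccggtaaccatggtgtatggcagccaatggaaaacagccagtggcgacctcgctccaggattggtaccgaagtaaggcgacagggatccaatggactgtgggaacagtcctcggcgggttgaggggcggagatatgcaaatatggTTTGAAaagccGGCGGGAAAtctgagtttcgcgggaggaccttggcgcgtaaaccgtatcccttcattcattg
Iqgap3: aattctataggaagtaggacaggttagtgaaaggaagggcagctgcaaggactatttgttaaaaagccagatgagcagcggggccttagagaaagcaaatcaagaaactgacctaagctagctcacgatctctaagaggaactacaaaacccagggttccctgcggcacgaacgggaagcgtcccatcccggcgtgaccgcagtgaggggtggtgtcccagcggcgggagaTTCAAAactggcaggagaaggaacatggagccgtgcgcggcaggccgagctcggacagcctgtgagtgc
H3c8: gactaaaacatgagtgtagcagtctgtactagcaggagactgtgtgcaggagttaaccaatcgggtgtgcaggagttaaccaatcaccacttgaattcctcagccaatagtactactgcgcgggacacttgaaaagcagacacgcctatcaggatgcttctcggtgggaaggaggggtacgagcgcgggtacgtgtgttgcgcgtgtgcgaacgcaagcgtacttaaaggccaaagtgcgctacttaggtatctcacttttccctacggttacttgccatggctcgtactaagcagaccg

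In E2f3, the E2F letters filled bases 239 to 247 and the CHR letters bases 228 to 233. Its summits lay at base 237 and base 238 in WT and at base 218 and base 228 in KO. In Iqgap3, the CHR letters filled bases 232 to 237, and the summits lay at bases 218 and 217 in WT and 220 and 227 in KO. H3c8 held neither set of letters, and its 4 summits fell between base 115 and base 126.

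Fen1 (chr19:10203872-10204171, minus strand) and Terf2 (chr8:107096496-107096795, minus strand) had a peak in both WT libraries and in neither KO library. Fen1 held no letters of either set, with WT summits at bases 279 and 242. Terf2 held CHR letters at bases 123 to 128, with WT summits at bases 125 and 139.
Fen1: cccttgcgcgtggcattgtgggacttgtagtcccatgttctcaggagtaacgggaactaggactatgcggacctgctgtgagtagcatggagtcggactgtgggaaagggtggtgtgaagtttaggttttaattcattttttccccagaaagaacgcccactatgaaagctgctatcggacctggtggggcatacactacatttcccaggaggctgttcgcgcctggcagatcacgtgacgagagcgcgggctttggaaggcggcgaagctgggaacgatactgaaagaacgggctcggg
Terf2: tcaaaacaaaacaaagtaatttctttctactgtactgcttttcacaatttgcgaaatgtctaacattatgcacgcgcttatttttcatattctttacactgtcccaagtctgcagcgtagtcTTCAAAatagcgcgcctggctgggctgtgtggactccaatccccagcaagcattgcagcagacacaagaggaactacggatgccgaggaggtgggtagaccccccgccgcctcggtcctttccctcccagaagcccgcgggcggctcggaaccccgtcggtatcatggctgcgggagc

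Before the results on genes, the libraries themselves have to be described, since KO replicate 1 stood apart from the other 3. The lists held 1741 and 1033 autosomal peaks in WT replicates 1 and 2, and 281 and 669 in KO replicates 1 and 2. Both KO lists were shorter than both WT lists, with a KO mean of 475 ± 274 (SD, n = 2) against 1387 ± 501 (SD, n = 2), which is 34.2% of WT (exact permutation test, two-sided, p = 0.333, the smallest that 2 against 2 libraries allow). This exact test can therefore not pass 0.05 with these 4 libraries, whatever the size of a difference. Leaving out KO replicate 2 gave 20.3% of WT and leaving out KO replicate 1 gave 48.2%. The highest fold enrichment of a peak was lower in both KO libraries, at 40.0 and 68.6, than in both WT libraries, at 84.9 and 110. The lists hold no read counts, so the depth is unknown, and the part of depth and enrichment in the peak numbers was not tested. A gene without a peak is one where no peak was called, and says nothing on whether E2f4 was bound below the calling threshold.

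The histone lists served to check the tissue. All 22 genes of hepatocyte identity and secretion, such as Alb, Apob and Hnf4a, had H3K27ac within 1000 bp of their start in both genotypes. Some other cell types were represented too, with H3K27ac at 8 of 9 endothelial and 6 of 7 Kupffer cell and macrophage genes in both genotypes. Stellate cell and fibroblast genes had it at 6 of 8 in WT and 5 of 8 in KO. Cholangiocyte genes had it at only 1 of 6 in WT and 0 of 6 in KO. In the order of these 4 lists, H3K4me2 lay at 8, 4, 7 and 3 genes in WT and at 9, 6, 8 and 3 in KO. Lymphocyte genes had H3K27ac at 3 of 9 in WT and 2 of 9 in KO, and H3K4me2 at 8 of 9 in WT and 2 of 9 in KO. The part of other cell types in the E2f4 lists was not tested. No E2f4 summit lay near any of these cell type genes in any library, hepatocyte genes included.

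E2f4 lay at cell cycle genes in both genotypes. A gene was taken to carry E2f4 when the summit of a peak, its highest position, lay within 1000 bp of the gene's start. Of 20665 autosomal protein-coding genes, 1426 (6.9%) and 1011 (4.89%) carried a summit in WT replicates 1 and 2, and 247 (1.2%) and 691 (3.34%) in KO replicates 1 and 2. The KO mean of 469 ± 314 (SD, n = 2) was 38.5% of the WT mean of 1218.5 ± 293 (SD, n = 2; exact permutation test, two-sided, p = 0.333). A total of 824 genes (3.99%) carried a summit in both WT libraries. Of these, 238 (1.15% of all genes) carried one in both KO libraries, 351 in KO replicate 2 alone, 3 in KO replicate 1 alone, and 232 (1.12% of all genes, 28.2% of the 824) in neither. In the opposite direction, 0 genes (0%) were called in KO replicates 1 and 2 and in neither WT library. The 232 genes became 388 without WT replicate 1, 795 without WT replicate 2 and 583 without KO replicate 2, and 235 without KO replicate 1. With every list cut to its 281 strongest peaks, the number was 13, and the KO mean of genes with a summit was 89.5% of WT.

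**Figure D1:**
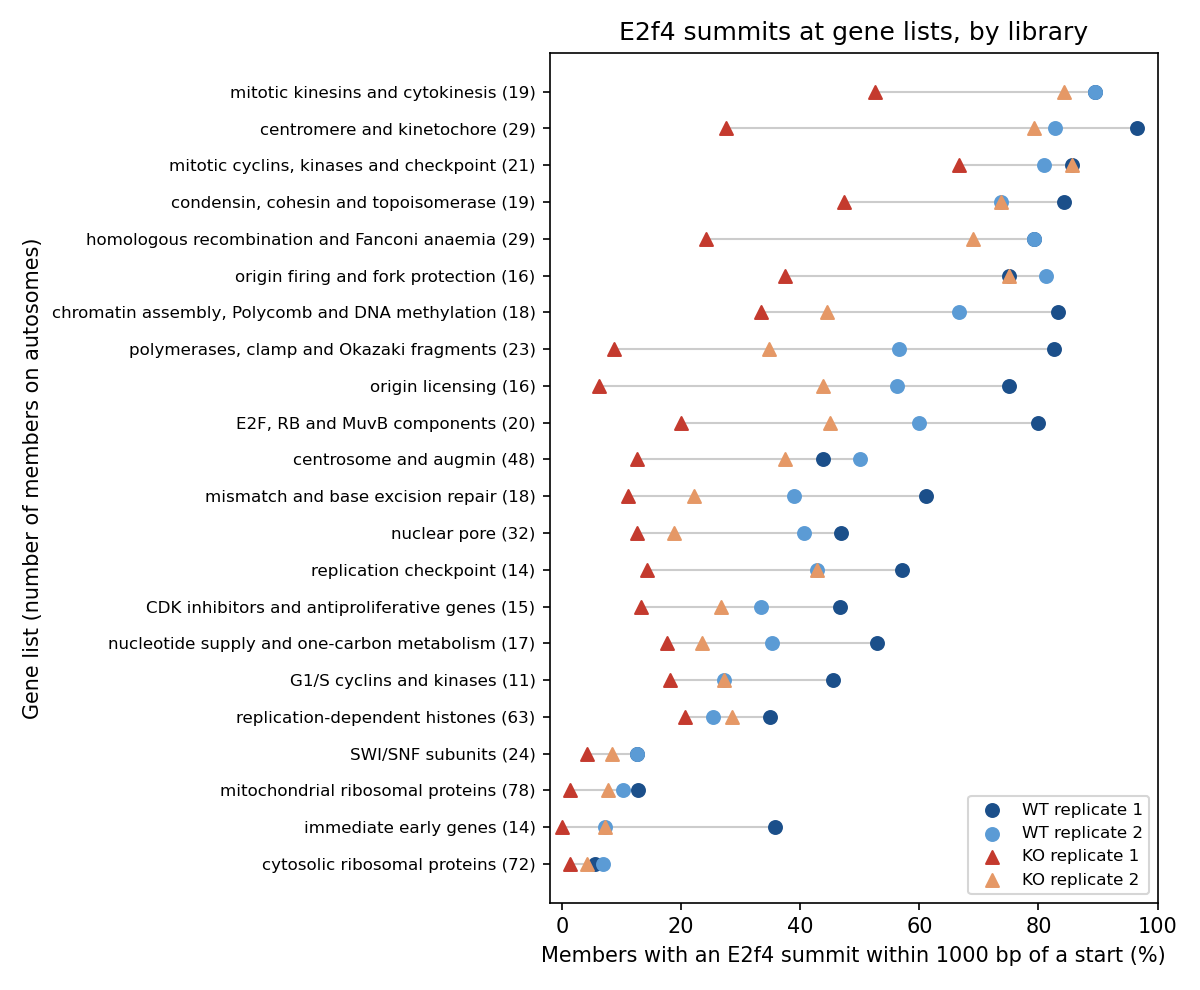
Share of the members of each gene list with an E2f4 summit within 1000 bp of a start (x axis, %), for the 22 lists with a summit in any library (y axis, number of autosomal members in brackets). Each point is 1 library. KO replicate 1 is lowest in every list shown, while KO replicate 2 equals or passes a WT library in several lists, such as mitotic cyclins, kinases and checkpoint.

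The genes of mitosis carried E2f4 in nearly the same numbers in KO replicate 2 as in WT. Among 21 mitotic cyclins, kinases and checkpoint genes, 18 and 17 carried a summit in WT and 14 and 18 in KO. The 14 members with a summit in all 4 libraries included Cdk1, the mitotic cyclin-dependent kinase, Plk1 and Aurkb, kinases of spindle and chromosome passenger function, and Bub1 and Ttk, kinases of the spindle checkpoint. Bub1b was the only member called in both WT libraries that had no KO summit. It was 1 of 17 such members, beside 28.2% for all genes of both WT libraries. Bub1 (chr2:127800197-127831859, build mm10) held place 8 and place 2 in the WT lists and place 16 and place 7 in the KO lists, where place 1 is the peak with the highest −log10 q-value of its list. Ttk held places 11 and 7 in WT and 25 and 45 in KO.

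Mitotic kinesins and cytokinesis genes gave 17 and 17 of 19 in WT and 10 and 16 in KO. Kif20a, a kinesin of the central spindle, shares its peak with the neighbouring gene Brd8, at places 9 and 3 in WT and 2 and 3 in KO. Mki67, which codes for the proliferation antigen Ki-67, had places 37 and 35 in WT and 10 and 36 in KO. Kif18b, a microtubule-depolymerising kinesin, had places 55 and 34 in WT, 126 in KO replicate 1 and 30 in KO replicate 2. Cit, the citron kinase of cytokinesis, was the only member with no KO summit among the 17 of both WT libraries, beside 28.2% for all such genes. Of 19 condensin, cohesin and topoisomerase genes, 16 and 14 carried a summit in WT and 9 and 14 in KO. All 14 of both WT libraries carried one in at least 1 KO library, beside 71.8% for all such genes. They included Top2a, the topoisomerase that untangles sister chromosomes, and Cdca5, the cohesin protector sororin, which shares a peak with Zfpl1 at places 10 and 8 in WT and 6 and 15 in KO.

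Centromere and kinetochore genes showed the gap between the KO libraries. Of 29 members, 28 and 24 carried a summit in WT, 8 in KO replicate 1 and 23 in KO replicate 2. Ndc80, the microtubule-binding kinetochore protein, had places 34 and 64 in WT and place 102 in KO replicate 2, and was not called in KO replicate 1. Cenpk, of the inner kinetochore, had places 89 and 30 in WT and 37 in KO replicate 2, but 248 of 281 in KO replicate 1. Cenpa, the centromeric histone H3 variant, Cenpm and Cenpt carried a summit in both WT libraries and none in KO. They were 3 of the 24 members of both WT libraries, beside 28.2% for all such genes. Of 48 centrosome and augmin genes, 21 and 24 carried a summit in WT and 6 and 18 in KO, among them Cep57 at places 23 and 42 in WT and 11 and 19 in KO.

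Genes of the replication fork and of origin licensing carried fewer summits in each KO library than in either WT library, as did all genes, of which 6.9% and 4.89% carried one in WT and 1.2% and 3.34% in KO. Among 23 genes for polymerases, the sliding clamp and Okazaki fragments, 19 and 13 carried a summit in WT and 2 and 8 in KO. The 2 called in all 4 libraries were Pcna, the sliding clamp itself, and Rpa2, a subunit of the single-strand binding protein RPA. The 6 called in both WT libraries that had no KO summit were Pola2, Pold3 and Pole, subunits of the replicative polymerases, Rfc2 of the clamp loader, Fen1, the flap nuclease of Okazaki fragments, and Chaf1b of the histone chaperone CAF-1. These 6 were 6 of 13 members with a summit in both WT libraries, beside 28.2% for all such genes. Lig1, the DNA ligase that joins Okazaki fragments, had places 226 and 239 in WT and place 204 in KO replicate 2, and was not called in KO replicate 1.

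Origin licensing genes gave 12 and 9 of 16 in WT and 1 and 7 in KO. Mcm3, a subunit of the replicative helicase, was the 1 member called in all 4 libraries, at places 86 and 37 in WT and 47 and 25 in KO. The other subunits Mcm4, Mcm5 and Mcm7, the loaders Cdc6 and Cdt1 and the licensing inhibitor Gmnn were called in both WT libraries and KO replicate 2. Mcm6 and Orc1, a subunit of the origin recognition complex, were called in both WT libraries and in no KO library. They were 2 of the 9 licensing genes of both WT libraries, beside 28.2% for all such genes. Origin firing and fork protection genes gave 12 and 13 of 16 in WT and 6 and 12 in KO. All 11 of both WT libraries were called in KO replicate 2, beside 71.5% for all such genes. Cdc7, the kinase that fires origins, had places 42 and 47 in WT and 15 and 98 in KO.

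The place of the WT peaks differed between these lists. The 824 genes had a median WT place (mean of both WT lists) of 404, which was 119 for the genes called in all 4 libraries, 408 for those called in KO replicate 2 alone of the KO lists, and 711 for those called in no KO library. The median was 84 for mitotic cyclins and kinases, 121.5 for kinesins and cytokinesis, 195 for origin firing, 459 for polymerases and 567 for origin licensing. Of the genes of both WT libraries, 53.8% of the polymerase list and 77.8% of the licensing list were called in a KO library. For all 824 genes the share was 71.8%. No test was made of a difference between lists.

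Homologous recombination and Fanconi anaemia genes gave 23 and 23 of 29 in WT, 7 in KO replicate 1 and 20 in KO replicate 2. Brca1, which guides repair by recombination, had places 21 and 29 in WT and 62 and 67 in KO, from a peak shared with the neighbouring gene Nbr1. Xrcc3 was the only one without a KO summit among the 21 members of both WT libraries, beside 28.2% for all such genes. Mismatch and base excision repair genes gave 11 and 7 of 18 in WT and 2 and 4 in KO. Pms2, Ung and Xrcc1 were called in both WT libraries and in no KO library. They were 3 of the 7 members of both WT libraries, beside 28.2% for all such genes. Neil3, a DNA glycosylase, was called in all 4 libraries at places 61 and 15 in WT and 14 and 18 in KO.

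Several genes of the E2F network itself carried strong peaks in every library. E2f3, an activating E2F, had places 5 and 5 in WT and 4 and 2 in KO, with fold enrichments of 56.0, 74.2, 27.1 and 68.6 in WT replicates 1 and 2 and KO replicates 1 and 2. Foxm1, a transcription factor of mitotic genes, had places 16 and 31 in WT and 24 and 91 in KO. Mybl2, which codes for B-Myb, the partner of MuvB in cycling cells, had places 152 and 149 in WT and 139 and 133 in KO. Of the 20 E2F, RB and MuvB genes, 16 and 12 carried a summit in WT and 4 and 9 in KO. E2f5, Lin54 and Rbbp4 were those of both WT libraries without a KO summit. They were 3 of the 11 members of both WT libraries, beside 28.2% for all such genes. G1/S cyclins and kinases gave 5 and 3 of 11 in WT and 2 and 3 in KO. Ccne1, the cyclin E1 gene, was called in all 4 libraries, at places 415 and 434 in the WT lists of 1741 and 1033 peaks, and at places 198 and 186 in the KO lists of 281 and 669. CDK inhibitors and antiproliferative genes gave 7 and 5 of 15 in WT and 2 and 4 in KO, with Cdkn2d called in all 4 libraries and Cdkn2c in both WT libraries alone. Replication checkpoint genes gave 8 and 6 of 14 in WT and 2 and 6 in KO, with the kinase Chek2 called in all 4 libraries, the kinase Chek1 in both WT libraries and KO replicate 2, and Atr, which activates Chek1, in both WT libraries alone.

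At replication-dependent histone genes the KO and WT numbers overlapped. Of 63 members, 22 and 16 carried a summit in WT and 13 and 18 in KO. Of the 15 of both WT libraries, 12 were called in all 4, beside 28.9% for all such genes. H3c8 had places 4 and 4 in WT and 7 and 6 in KO. H2ac12 and H2bc12 share a peak at places 3 and 25 in WT and 3 and 23 in KO. H2ac11 shares one with H2bc11, and H2ac7 with H2bc7, so the members called were not all separate peaks. Histone genes are near-identical copies in clusters, so reads can be assigned to the wrong copy and single members are uncertain. Among chromatin assembly, Polycomb and DNA methylation genes, 15 and 12 of 18 carried a summit in WT and 6 and 8 in KO. Ezh2, the Polycomb methyltransferase, Cbx5, Hmgn2 and Dek were called in both WT libraries and in no KO library. They were 4 of the 11 members of both WT libraries, beside 28.2% for all such genes.

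Nucleotide supply and one-carbon genes gave 9 and 6 of 17 in WT and 3 and 4 in KO. Rrm1 and Rrm2, the subunits of ribonucleotide reductase, were called in all 4 libraries, Rrm2 at places 45 and 6 in WT and 26 and 20 in KO. Nuclear pore genes gave 15 and 13 of 32 in WT and 4 and 6 in KO. Of the 12 of both WT libraries, 6 had no KO summit, beside 28.2% for all such genes. These 6 were Gle1, Ndc1, Nup155, Nup205, Nup214 and Nup85. Ahctf1, which starts pore assembly after mitosis, was called in all 4 at places 6 and 14 in WT and 38 and 22 in KO.

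Cytosolic ribosomal protein genes gave 4 and 5 of 72 in WT and 1 and 3 in KO, and mitochondrial ones 10 and 8 of 78 in WT and 1 and 6 in KO. Several of those calls were shared with a cell cycle neighbour, such as the peak of Mrpl51 and Ncapd2. Of 24 SWI/SNF subunit genes, Brd9 was called in all 4 libraries, from a peak shared with the mitotic gene Trip13, and Bcl7a in both WT libraries and KO replicate 2. Immediate early genes gave 5 and 1 of 14 in WT and 0 and 1 in KO, where Myc, the only one of both WT libraries, was also called in KO replicate 2. The Arid1a start had a summit in WT replicate 2 alone, at place 1028 of 1033 and 658 bp upstream, and E2f4 itself had none. Neither value checks the genotype, since the lists hold no coverage of the deleted part.

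The genes of both WT libraries without a KO summit had a median WT place of 711. The best of them stood well above that, in lists of 1741 and 1033 peaks. The 2 best by mean place were Shmt2 (chr10:127517123-127522444), the mitochondrial serine hydroxymethyltransferase, at places 160 and 188, and Pdk4 (chr6:5483351-5496278), a kinase that restrains pyruvate dehydrogenase, at places 148 and 283. The summits lay 461 and 470 bp downstream of the start of Shmt2 and 437 and 456 bp upstream of that of Pdk4. The median fold enrichment of all peaks was 6.75 and 9.89 in WT replicates 1 and 2. Against these values, Shmt2 had 20.9 and 24.4 and Pdk4 had 23.8 and 17.7. They were followed by Mkks and Slx4ip at places 269 and 290, where the peaks of the WT libraries lay at separate sites, Gle1, an mRNA export factor, at 336 and 229, Fen1 and its neighbour Tmem258, which share a peak, at 284 and 285, and Terf2, a telomere-binding protein, at 271 and 320.

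In the opposite direction, 35 genes (0.169%) were called in a single KO library and in neither WT library. The best placed in KO replicate 1 were H4c6, a histone H4 gene, at place 242 of 281, and Tubgcp5, of the microtubule nucleating complex, at place 258. In KO replicate 2 they were Smim8 at place 386 of 669 and Ccdc89 at place 392.

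**Figure D2:**
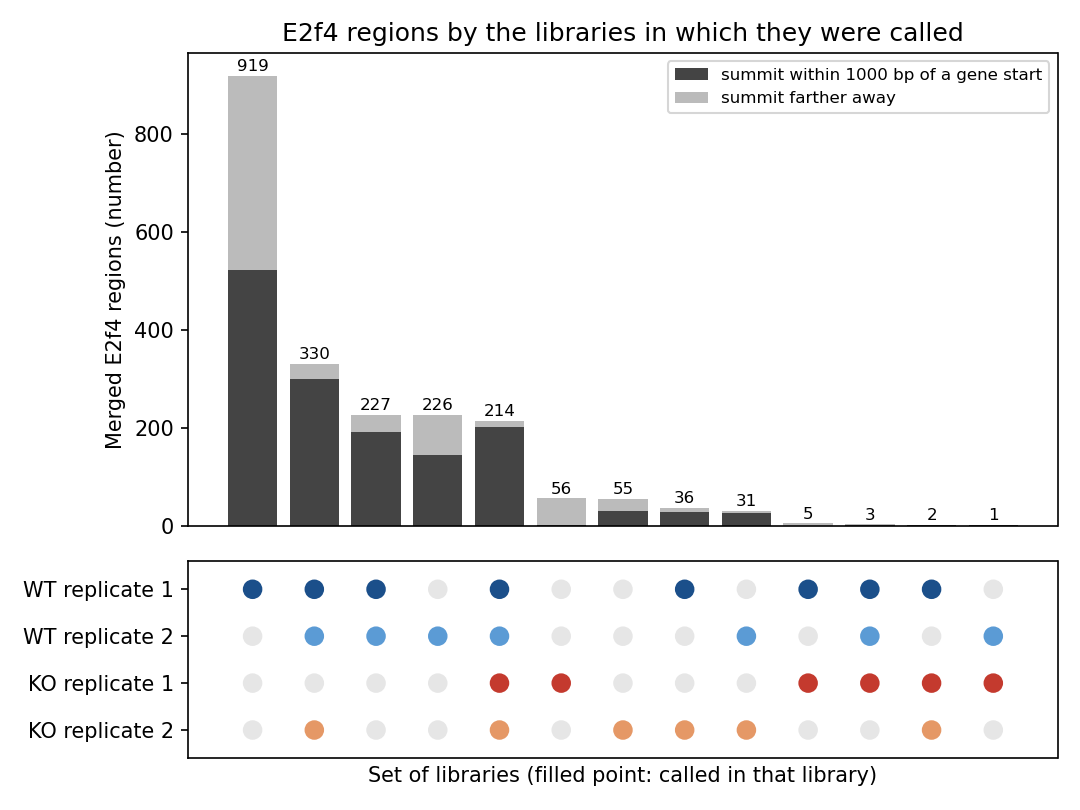
Number of merged E2f4 regions (y axis) by the set of libraries in which they were called (filled points below each bar), divided by whether a summit lay within 1000 bp of a gene start. The 214 regions of all 4 libraries and the 330 of both WT libraries and KO replicate 2 lie mostly at gene starts, and the 56 of KO replicate 1 alone lie almost all elsewhere.

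The same pattern held for regions. Of the 2105 regions, 214 (10.2%) were called in all 4 libraries, 330 in both WT libraries and KO replicate 2, 227 (10.8%) in both WT libraries alone, and 0 (0%) in both KO libraries alone. WT replicate 1 alone gave 919 and WT replicate 2 alone gave 226. Of the 774 regions of both WT libraries, 217 were called in KO replicate 1 (28.0%, exact 95% interval 24.9 to 31.3) and 544 in KO replicate 2 (70.3%, 66.9 to 73.5), a mean of 49.2% ± 29.9 (SD, n = 2). The intervals cover counting error over regions only. The WT lists differed between themselves too, with 44.7% of WT replicate 1 peaks called in WT replicate 2 and 75.0% in the reverse direction. The share of regions with a summit near a gene start was 94.4% for those of all 4 libraries, 90.9% for those of both WT libraries and KO replicate 2, and 84.6% for those of both WT libraries alone.

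The regions found in KO replicate 1 alone were of another kind. Only 2 of these 56 lay near a gene start, and 7.14% had their summit inside H3K4me2 of KO, the mark of promoters and enhancers. The 55 of KO replicate 2 alone lay near a start in 31 cases, and 72.7% had their summit inside H3K4me2 of KO.

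The strongest WT peaks were called in KO replicate 2 in nearly all cases. Of the 200 strongest peaks of WT replicate 1, all 200 were called in WT replicate 2, 197 in KO replicate 2 and 145 in KO replicate 1. Of the 200 strongest of WT replicate 2, 199 were called in KO replicate 2 and 154 in KO replicate 1. The 200 strongest of KO replicate 2 were called in each WT list in 200 cases, and in KO replicate 1 in 154. In turn, of the 200 strongest of KO replicate 1, 197 and 194 were called in the WT lists and 194 in KO replicate 2.

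**Figure D3:**
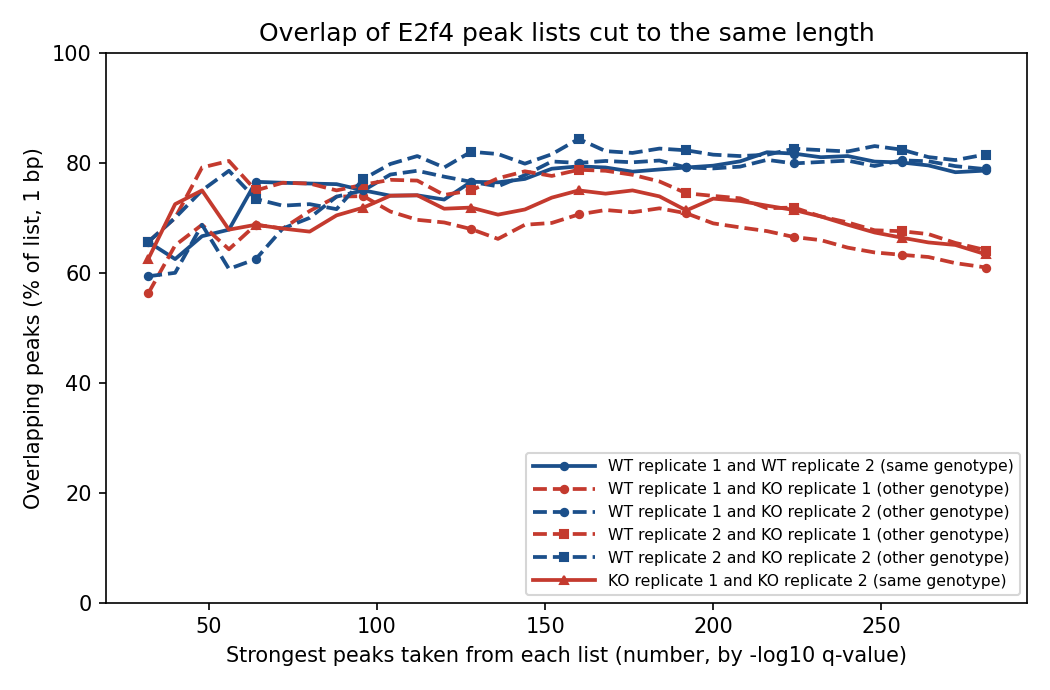
Overlap of E2f4 lists in pairs (y axis, % of the list, at least 1 bp) when each list is cut to its strongest peaks (x axis, number by −log10 q-value). Red lines are the pairs with KO replicate 1 and blue lines the pairs without it, solid within a genotype and dashed between genotypes. At 281 peaks the blue lines lie at 78.6% to 81.5% and the red lines at 60.9% to 64.1%. At 96 peaks the blue lines lie at 75.0% to 77.1% and the red lines at 71.9% to 76.0%.

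With every list cut to 281 peaks, pairs of the same genotype overlapped no more than pairs of different genotypes. The WT replicates overlapped by 78.6%, and KO replicate 2 overlapped WT replicates 1 and 2 by 79.0% and 81.5%. KO replicate 1 overlapped them by 60.9% and 64.1%, and KO replicate 2 by 63.3%. At this length the list of KO replicate 1 was not cut, so its weakest peaks were included. With 96 peaks per list, KO replicate 1 overlapped WT replicates 1 and 2 by 74.0% and 76.0%, and KO replicate 2 by 71.9%. The pairs without KO replicate 1 then overlapped by 75.0% to 77.1%. The mean overlap was 71.0% within genotypes and 71.4% between them, a difference of -0.356 percentage points (exact permutation test over the 3 ways to pair 4 libraries, two-sided, p = 0.667, smallest possible 0.333). Without KO replicate 1 the lists could be cut to 669 peaks, and the overlap was 77.0% within WT and 73.6% and 75.5% between KO replicate 2 and the WT lists, 2.43 percentage points more within than between. Without KO replicate 2 the same difference was 16.2 points.

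**Figure D4:**
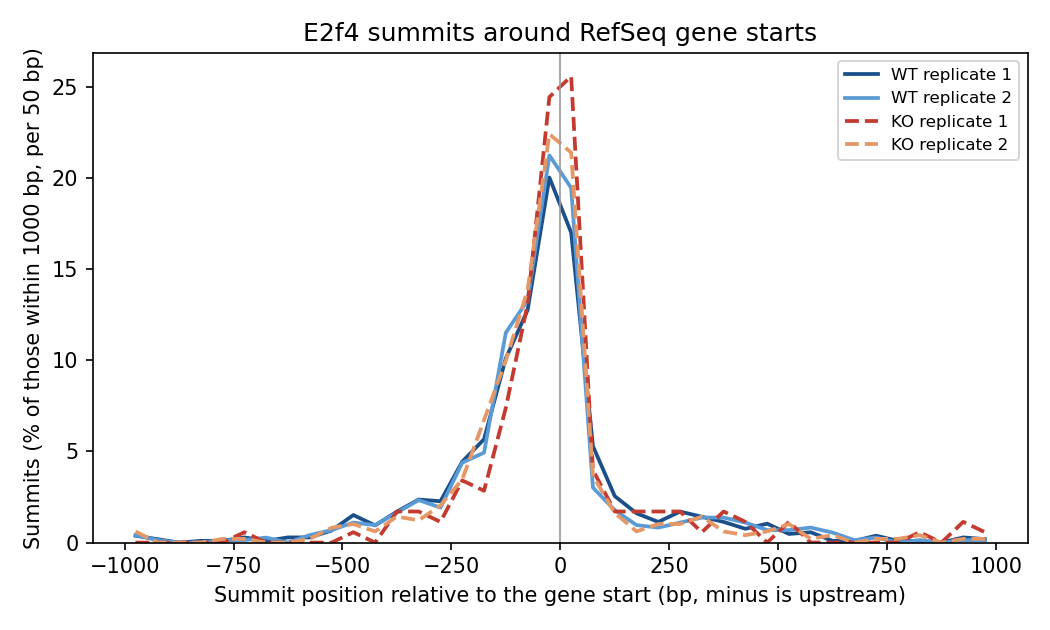
Position of E2f4 summits relative to RefSeq gene starts (x axis, bp, minus is upstream) as a share of the summits within 1000 bp of a start (y axis, % per 50 bp), by library. The curves peak at the start in all 4 libraries, and those of the KO libraries are higher in the 50 bp on either side.

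Summits lay close to gene starts in both genotypes. Among summits within 1000 bp of a RefSeq start, the median position was −34 and −33 bp in WT and −10 and −30 bp in KO. The share within 100 bp of the start was 55.1% and 57.1% in WT and 67.0% and 61.5% in KO, groups that did not overlap and differed by 8.14 percentage points (exact permutation test, two-sided, p = 0.333). In lists of equal length it was 63.6% and 65.0% in WT and 67.0% and 65.6% in KO, a difference of 2.02 points. The share of all summits near a start was 71.7% and 84.0% in WT and 74.4% and 88.3% in KO, so that the genotypes overlapped (exact permutation test, two-sided, p = 0.667). Peak width overlapped as well, with medians of 207 and 211 bp in WT and 186 and 214 bp in KO (exact permutation test, two-sided, p = 1). The genotypes separated when only peaks of higher −log10 q-value were kept. KO minus WT in median width was then -25.5 bp at values of at least 5, -39.5 bp at 10 or more and -94.5 bp in lists of equal length (exact permutation test, two-sided, p = 0.333 each). In the equal lists KO replicate 1 was not cut, while the other lists kept only their strongest peaks. The mean of the median widths there was 315 bp in WT and 220.5 bp in KO, against 209 and 200 bp in the full lists. The part of peak strength in this difference was not tested. The share near a start was higher in both KO libraries at these values of 5 and 10, by 5.35 and 3.56 percentage points (p = 0.333 each by the same exact permutation test), but KO minus WT was -9.79 points in lists of equal length (exact permutation p = 1).

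Within overlapping peaks, the distance between summits of 2 libraries was compared within and between genotypes. The median distance was 17 bp between the WT libraries, 12 bp between the KO libraries, and 15, 16, 12 and 12 bp for the 4 pairs of a WT and a KO library. The mean of these medians was 14.5 bp within and 13.75 bp between genotypes (exact permutation test, two-sided, p = 0.667). In the regions of all 4 libraries it was 11 bp within and 12.1 bp between (p = 0.333 by the same exact permutation test), and in lists of equal length 10 and 10.75 bp. The direction of this small difference thus depended on the peaks compared.

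Among the 214 regions of all 4 libraries, 190 had summits within 50 bp of each other in each genotype. In these 190, the mean KO summit lay a median of 7.5 bp from the mean WT summit, and 2 regions lay more than 50 bp away. In 66 of the 214 regions (30.8%) both KO summits lay on 1 side of both WT summits, a count of orders that singles out no region. Shifts of named genes are given as a description, with no test. Larger differences, of 113.5 bp at Ran and 91.5 bp at Hmgb2, stood in regions whose replicate summits lay more than 50 bp apart. Among the 190 regions, the shift was largest at Aspm, a spindle pole protein whose loss causes microcephaly, where the summits lay at 27 and −6 bp from the start in WT and at −55 and −50 bp in KO, a shift of −63.0 bp. Its window (chr1:139454523-139454822, plus strand) is shown because the CHR letters, in capitals at bases 257 to 262, lie between the WT summits at bases 278 and 245 and away from the KO summits at bases 196 and 201.
Aspm: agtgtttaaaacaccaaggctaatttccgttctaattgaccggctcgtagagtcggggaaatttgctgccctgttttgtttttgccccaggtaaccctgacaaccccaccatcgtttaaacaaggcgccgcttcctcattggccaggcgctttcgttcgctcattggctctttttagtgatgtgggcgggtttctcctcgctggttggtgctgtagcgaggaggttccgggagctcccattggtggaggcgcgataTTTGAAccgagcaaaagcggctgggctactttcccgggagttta

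The next largest shifts of the 190 regions were −51.0 bp at Mdc1, a mediator of the DNA damage checkpoint, 45.0 bp at Ccne1 and −43.5 bp at Ipo11, all in genome coordinates. At Ccne1 the summits lay at 13 and −24 bp from the start in WT and at −49 and −52 bp in KO, farther upstream in both KO libraries. At both genes the 2 WT summits lay on opposite sides of the start, so that the WT libraries differed between themselves as well.

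The order of the common regions by −log10 q-value was compared within the 214, where all 4 lists have the same length. Both KO libraries placed a region lower than both WT libraries in 30 regions (14%) and higher in 27 (12.6%). These counts single out no region, and the named genes are a description with no test. Ttf2, a transcription termination factor, was 22 and 21 in WT against 68 and 73 in KO. Ticrr, a regulator of origin firing, was 47 and 60 in WT and 101 and 91 in KO. The peak of Iscu and Sart3 was 95 and 77 in WT and 173 and 157 in KO. In the other direction Ncapd2, a condensin subunit, was 143 and 102 in WT and 77 and 51 in KO. H2bc15, a histone H2B gene, was 192 and 92 in WT against 63 and 49 in KO. These genes were chosen after their values were seen. The rank correlation of the order was 0.831 between the WT libraries, 0.839 and 0.851 between them and KO replicate 2, and 0.694 to 0.772 for the pairs with KO replicate 1, each over the same 214 regions.

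**Figure D5:**
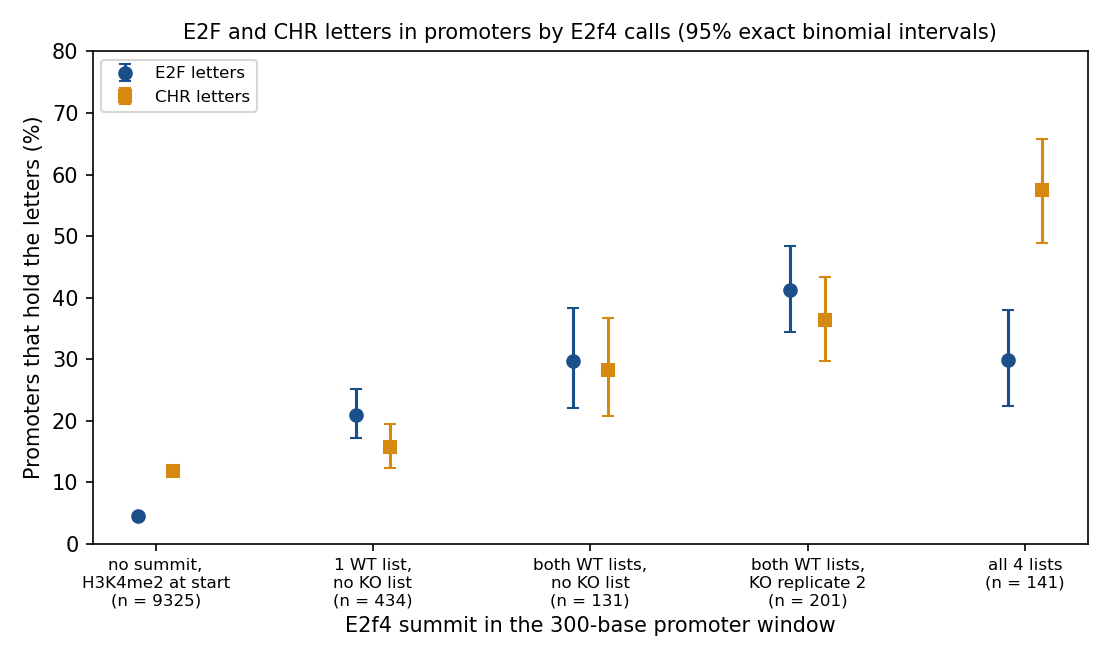
Share of 300-base promoters that hold E2F letters (circles) or CHR letters (squares), in % (y axis), by the libraries with an E2f4 summit in the window (x axis, number of promoters in brackets). Bars are exact binomial 95% intervals over promoters. The share with CHR letters is 57.4% for promoters called in all 4 libraries and 28.2% for those called in both WT libraries alone, while the E2F share is 29.8% in both.

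In the promoter windows, the share with CHR letters differed between promoters called in all libraries and those called in WT alone. The share with E2F letters was 29.8% in both. CHR letters were in 17.5% of all 16457 promoters, in 57.4% of the 141 promoters with a summit in all 4 libraries (exact 95% interval 48.8 to 65.7), in 36.3% of the 201 with one in both WT libraries and KO replicate 2 (29.7 to 43.4), and in 28.2% of the 131 called in WT replicates 1 and 2 without a KO call (20.7 to 36.8). E2F letters were in 4.74% of all promoters and in 29.8%, 41.3% and 29.8% of those same groups. By library, CHR letters were in 30.3% and 35.9% of promoters with a summit in WT and 55.9% and 41.9% in KO, and E2F letters in 27.9% and 34.6% in WT and 30.9% and 36.0% in KO. The groups are defined by the calls and share their libraries, and list length, which sets how many weak peaks enter, moves with these shares. The median distance from a summit to the E2F letters of its window was 19.5 and 14.5 bp in WT and 15.5 and 14.5 bp in KO (exact permutation test, two-sided, p = 1).

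Histone marks at the E2f4 regions were described from 1 library per mark and genotype, with no replicate check. Within 1000 bp of the summit, H3K27ac, a mark of active promoters and enhancers, covered a mean of 1265 bp in WT and 1582 bp in KO at the 214 regions of all 4 libraries, and was longer in KO at 157 of them (73.4%). At the 227 regions of both WT libraries alone it covered 1483 bp in WT and 1598 bp in KO and was longer in KO at 107 (47.1%). At 11722 gene starts with H3K4me2 and no E2f4 summit it covered 1265 and 1299 bp and was longer in KO at 38.4%. H3K4me2 covered 1740 and 1718 bp at the regions of all 4 libraries. The summit of 38 of the 214 regions (17.8%) lay inside H3K27ac in KO alone, and that of 0 in WT alone. Of the 11722 gene starts, 5.52% lay inside H3K27ac in KO alone and 3.16% in WT alone. Of the 227 regions of both WT libraries alone, the summit did so in 4.41% and 0.441%. Summits of single libraries lay inside H3K27ac of their own genotype in 73.6% and 82.3% of cases in WT and 75.8% and 93.1% in KO (exact permutation test, two-sided, p = 0.667), and inside H3K4me2 in 82.0% and 93.9% in WT and 79.4% and 97.3% in KO (p = 1 by the same exact permutation test). At −log10 q-values of at least 5 and 10 both KO libraries lay above both WT libraries, by 11.5 and 10.95 percentage points for H3K27ac and by 3.02 and 1.20 points for H3K4me2 (exact permutation test, two-sided, p = 0.333 each).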

How the data were processed

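E2f4, H3K4me2 and H3K27ac were profiled by ChIP-seq in liver 40 h after partial hepatectomy. E2f4 had 2 libraries per genotype and each mark 1, with groups and replicate numbers from the sample titles. The inputs were not used here. The submitters' processing notes name Bowtie2 2.2.3, Picard, MACS2 2.0.10.20131216, HOMER and build mm10 without saying what each did. Each library has a list of its own, so replicates were not pooled before calling.

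The deposited lists give each peak's fold enrichment, a ratio that is the authors' value for that peak alone, and its −log10 p-value and −log10 q-value, with a lowest −log10 q-value of 1.33 in the E2f4 lists. The deposited score, 10 times the −log10 q-value, was not used. Fold and −log10 q-value only described, ranked or filtered peaks within a list.

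Peaks on chromosomes 1 to 19 were compared by overlap of 1 bp and by summit position. Gene starts were RefSeq starts of GRCm38.p6 for 16457 of 20665 autosomal protein-coding genes, otherwise the gene end with more H3K4me2 within 2000 bp (3166 genes) or both ends (1042 genes). Exons and introns were not analysed here. Neighbours that share a peak both count. Per-library values were compared by exact permutation over libraries, two-sided, and shares have exact Clopper-Pearson 95% intervals. With so few libraries the exact permutation test cannot pass 0.05, and no p-value was adjusted.

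The E2f4 peaks as members, the 29 gene lists, the rules and the tests were chosen with earlier results of these data known. Named genes were the best placed 8 with a summit in all 4 libraries, the best 8 in both WT libraries but none of KO, up to 4 in 1 KO and no WT library, up to 4 members per list, the 5 largest summit shifts, Arid1a and E2f4. Other list members were named from their group. Alternatives were −log10 q-values of at least 5 and 10, windows of 500 and 5000 bp, overlap of 50% of the shorter peak, summits within 200 bp, ranking by fold, lists of equal length, the X chromosome added, a replicate block, and each library left out. Peak, summit and overlap functions were checked on simulated lists with known answers. Python 3.11.15, numpy 2.4.6, pandas 2.3.3, scipy 1.17.1 and matplotlib 3.10.9 were used.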

Additional observations from a re-analysis of the deposited data

Results flagged for a closer look

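Peaks outside the autosomes were not part of the comparisons. On the mitochondrial chromosome, 16 peaks were called in WT replicate 1 and 6 in WT replicate 2, against 1 in each KO library. The WT lists were longer on the autosomes too. On the X chromosome, 34 and 19 peaks were called in WT replicates 1 and 2, and 5 and 13 in KO replicates 1 and 2.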

How the results depend on the processing

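The E2f4 libraries number 2 per genotype and the lists hold no counts, so neither depth nor a difference at a single gene could be tested. Of 104 alternatives, 85 left the direction of a difference, or a count within 1.5 times and a share within 1 SD, as reported, whatever the size of the difference. The direction turned or came to 0 in 13, and 6 moved a count or share. With lists of equal length, the share of regions of both WT libraries called in KO was 81.9% ± 12.2 (SD, n = 2), the genes of both WT and no KO library numbered 13, and KO minus WT was -9.79 percentage points for summits near a start and -9.96 for summits in H3K4me2, with a difference of -0.75 bp in summit distance within minus between genotypes. KO minus WT in median width was then -94.5 bp, against -9 bp in the full lists. KO replicate 1 is not cut in the lists of equal length, so its weak peaks remain. At −log10 q-values of at least 10 the genes of both WT and no KO library numbered 113. The cause was not tested.

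With each library left out in turn, the KO mean ranged from 20.3% to 48.2% of WT for peaks and from 20.3% to 56.7% for genes. The genes of both WT and no KO library ranged from 235 to 795, and the share called in KO from 23.1% (without WT replicate 2) to 70.3% (without KO replicate 1), with 28.0% without KO replicate 2. KO minus WT ranged from -3.51 to 10.5 percentage points for summits near a start, -8.60 to 9.35 in H3K4me2, -2.16 to 15.2 in H3K27ac and 5.37 to 10.9 within 100 bp of a start, and from -23 to 5 bp for width. Within minus between genotypes ranged from -9.43 to 16.2 points for overlap and from -3.5 to 3.5 bp for summit distance.

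The replicate numbers are not said to pair libraries. Same-numbered libraries deviated with a correlation of 0.194 over 2105 regions and -0.146 over the order of 214. With the replicate number as a block, the exact permutation p was 0.5 for peaks and genes, the smallest possible, and the crossed block gave 0.5 too, with 34.2% of WT for peaks and 38.5% for genes as without it.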
